A study of Mus musculus with 2 samples.

Results

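The genes described here are the subunits of AMP-activated protein kinase (AMPK), the upstream kinase Stk11 (LKB1) and the acetyl-CoA carboxylases Acaca and Acacb. They were chosen by a rule of name and function that uses no measured value, though with earlier results of these data known. They are 10 of the 55536 genes of the GENCODE M21 annotation. The study sequenced total RNA from adult male mouse heart tissue of a cross between 5xFAD and CAST, aged 8 to 10 months. There were 2 libraries in 1 group, with no control group and no treatment, so no contrast between conditions was possible and no p-value is given. Each library was made from 300 ng of RNA with a directional kit and ERCC spike-ins.

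5xFAD is a model of amyloid disease of the brain, in which mutant human transgenes are driven by the Thy1 promoter, active mainly in neurons. CAST is an inbred strain of wild-mouse descent. The labels do not say whether these libraries came from carriers of the transgenes. They give separate tissue samples and biological replicate numbers for libraries 1 and 2, but one donor identifier for both. Whether both libraries came from the same animal is thus not settled, and the differences between them may be partly or wholly technical.

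AMPK is a complex of a catalytic alpha subunit, a scaffolding beta subunit that binds glycogen, and a gamma subunit that binds AMP, ADP and ATP. It is activated when AMP rises and when LKB1 phosphorylates the alpha subunit, and it then shifts cells from synthesis to breakdown of fuel. Its best known substrates are the acetyl-CoA carboxylases, which make malonyl-CoA. In heart muscle malonyl-CoA inhibits carnitine palmitoyltransferase 1 at the outer mitochondrial membrane and thereby limits entry of fatty acids for oxidation. Mutations of the gene for the gamma2 subunit, PRKAG2, cause a human cardiomyopathy with glycogen storage and pre-excitation.

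Levels are given as TPM, a unit scaled to the same total in each library, which are corrected for length and can be compared between genes. A gene was called detected at 1 TPM or more in both libraries. This held for 9 of the 10 genes, beside 21.0% of all annotated genes and 48.9% of the 22028 protein-coding genes. The exception was Prkag3, the gamma3 subunit best known from fast skeletal muscle. The libraries held 39668202 and 36926511 reads counted on annotated genes. All 6 cardiomyocyte markers examined were detected.

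Prkag2 is described first by its sequence, because its 3 full-length coding transcripts start at separate places in the gene and differ in how they begin. The gene lies on the minus strand at chr5:24862744-25100642 (mm10). Prkag2-201 starts at base 25100642 and has 16 exons and 566 codons. Prkag2-202 starts 104889 bases downstream and has 14 exons and 443 codons. Prkag2-203 starts 192173 bases downstream of the first and has 12 exons and 326 codons. The first 60 coding bases of each are shown because the 3 forms begin their coding sequence differently, with the start codon in capitals (GENCODE M21 transcripts).
Prkag2-201: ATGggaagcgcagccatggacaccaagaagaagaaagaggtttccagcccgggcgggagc
Prkag2-202: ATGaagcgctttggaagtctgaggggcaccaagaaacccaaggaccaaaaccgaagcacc
Prkag2-203: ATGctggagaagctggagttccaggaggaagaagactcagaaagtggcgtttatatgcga
The start codon of the short form is codon 241 of Prkag2-201 and codon 117 of Prkag2-202, so the longer forms carry 240 and 116 codons ahead of it. The same stretch as it occurs inside Prkag2-202 has 3 additional bases, in capitals, at the start of an exon of 107 bases that has 104 bases in Prkag2-201.
Prkag2-202 from the inner start codon: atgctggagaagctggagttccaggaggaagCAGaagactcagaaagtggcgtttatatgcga

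The 250 bases ahead of 3 Prkag2 starts are shown from RefSeq (GRCm38.p6), 5′ to 3′ on the minus strand. The third is ahead of Prkag2-210, a coding transcript of 890 bases that begins near Prkag2-203. Capitals mark TATAAA (the TATA box), CCAAT (the box bound by NF-Y), GGGCGG (the GC box bound by Sp1) and CATTCC (the core site of TEAD factors), each in either orientation. In the second window the match to CCAAT overlaps one to its reverse complement.
Prkag2-201, chr5:25100643-25100892: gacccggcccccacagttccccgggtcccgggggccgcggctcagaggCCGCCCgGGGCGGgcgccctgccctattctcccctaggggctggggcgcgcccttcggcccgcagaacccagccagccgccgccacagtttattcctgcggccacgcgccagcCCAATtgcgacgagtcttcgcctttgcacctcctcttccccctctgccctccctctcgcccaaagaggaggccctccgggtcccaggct
Prkag2-202, chr5:24995754-24996003: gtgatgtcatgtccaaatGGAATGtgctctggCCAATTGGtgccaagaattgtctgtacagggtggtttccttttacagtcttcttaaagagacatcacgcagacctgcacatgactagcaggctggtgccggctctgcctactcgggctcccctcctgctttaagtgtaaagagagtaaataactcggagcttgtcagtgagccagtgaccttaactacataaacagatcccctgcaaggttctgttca
Prkag2-210, chr5:24908510-24908759: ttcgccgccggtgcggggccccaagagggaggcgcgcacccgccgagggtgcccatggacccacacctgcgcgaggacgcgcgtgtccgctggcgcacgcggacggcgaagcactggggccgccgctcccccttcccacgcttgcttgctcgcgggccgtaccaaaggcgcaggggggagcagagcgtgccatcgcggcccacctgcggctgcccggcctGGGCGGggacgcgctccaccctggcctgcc
The GC content of the first window was 73.2%, with 23 CpG dinucleotides, and that of the third 77.2%, with 34. The middle window, ahead of Prkag2-202, had a GC content of 48.4% and 4 CpG dinucleotides. Over all 32817 RefSeq windows of this length the medians were 52.4% and 6, so the outer windows lay at the 94.3 and 97.4 percentiles of GC content and the middle one at the 35.2 percentile. The first window held 2 matches to GGGCGG and 1 to CCAAT. The middle one held 2 to CCAAT and 1 to CATTCC, and the third held 1 to GGGCGG. Of all windows 32.7% hold GGGCGG, 33.8% hold CCAAT and 12.6% hold CATTCC on either strand. None of the 3 held TATAAA, which occurs in 12.4% of all windows. These matches describe the letters only.

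The reads were split over the 10 annotated Prkag2 transcripts by an estimator, and each library was quantified in 2 ways. The gene and transcript tables in the layout of RSEM are called the first quantification and the transcript table in the layout of kallisto the second. In the first, Prkag2-201 had 4.17 TPM in library 1 and 4.44 TPM in library 2. Prkag2-202 had 2.16 and 2.18 TPM. Prkag2-203 had 2.52 and 3.47 TPM. The longest form was thus the highest of the 3 in both libraries. Of the summed TPM of these 3, Prkag2-201 held 45.6% ± 2.20 (SD, n = 2 libraries), Prkag2-202 23.0% ± 1.98 and Prkag2-203 31.4% ± 4.18.

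The second quantification kept Prkag2-201 the highest of the 3, at 4.00 and 4.59 TPM, but reversed the order of the other forms. There, Prkag2-202 had 1.93 and 1.97 TPM and Prkag2-203 had 1.81 and 1.44 TPM. How far each form can be told from the rest of the annotation depends on its own sequence. Of the windows of 101 bases along Prkag2-201, 1018 of 3231 occur in no other annotated transcript, and of those along Prkag2-202, 522 of 2738. Prkag2-203 has 0 such windows among its 2105, and the deposited intervals of its TPM were wide, 1.51 to 3.34 in library 1 and 2.07 to 4.41 in library 2. The order of Prkag2-202 and Prkag2-203 therefore differed between the tables and was not resolved by these reads.

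For the gene as a whole, Prkag2 had 12.4 and 13.9 TPM by the first quantification and 13.4 and 18.8 TPM by the second. The second table gave more in both libraries, and the gap was wider in library 2. The 3 full-length forms summed to 8.85 and 10.1 TPM in the first table and to 7.74 and 8.00 TPM in the second. The other 7 transcripts summed to 3.56 and 3.83 TPM against 5.67 and 10.8 TPM. As sums, the full-length forms were thus lower in the second table and the other 7 higher, though single transcripts such as Prkag2-201 in library 2 went the other way. Prkag2-207, a retained-intron transcript of 651 bases, took 2.26 and 2.71 TPM in the first table and 4.06 and 6.78 TPM in the second, where it was above Prkag2-201 in both libraries. Prkag2-206, of 723 bases, was listed at 0 in the first table and had 0.798 and 3.12 TPM in the second. The counts behind the gene were closer, 900 and 933 in the first table and 975 and 1013 in the second. Protein-coding transcripts held 76.0% and 74.6% of Prkag2 TPM in the first table.

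**Figure D1:**
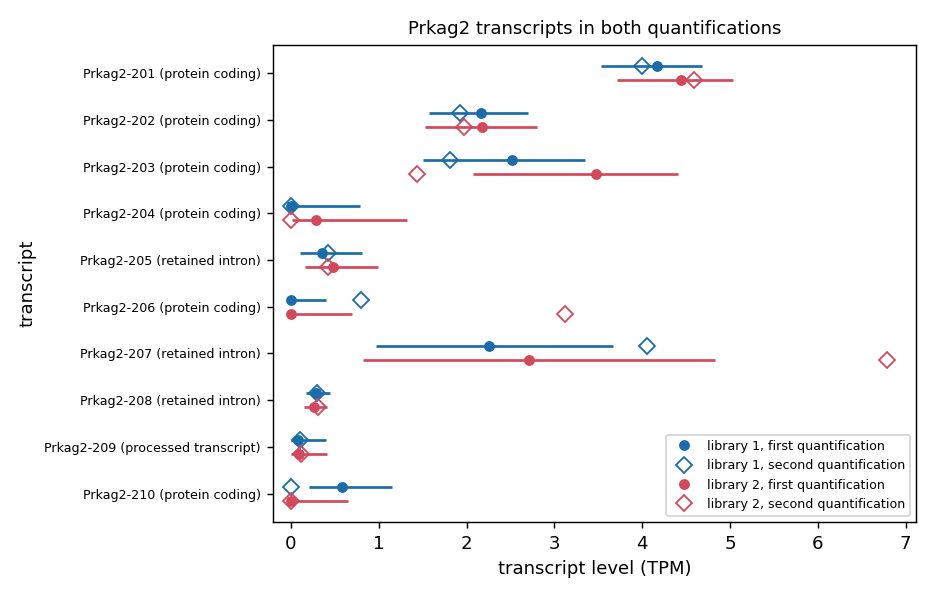
TPM of the Prkag2 transcripts in both libraries, with filled points for the first quantification, bars for its deposited intervals and open diamonds for the second quantification. Prkag2-201 is the highest full-length form in all 4 sets of values, and the retained-intron transcript Prkag2-207 reaches 6.78 TPM in library 2 of the second quantification.

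Of the catalytic subunits, Prkaa2 (alpha2; chr4:105029874-105109890, minus strand), the predominant form of heart and skeletal muscle, had 27.5 TPM in library 1 and 25.2 TPM in library 2. Prkaa1 (alpha1; chr15:5143861-5181899, plus strand), the widely expressed form, had 4.57 and 4.87 TPM. The values of these genes did not overlap. Alpha2 held 84.8% ± 1.36 (SD, n = 2) of catalytic subunit TPM by the first quantification, and 85.0% ± 1.41 by the second. The ratio of Prkaa2 to Prkaa1 was 6.02 in library 1 and 5.18 in library 2. Prkaa2 lay at the 82.5 percentile of TPM among the 10767 detected protein-coding genes and Prkaa1 at the 34.4 percentile.

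Prkaa2 has 1 annotated transcript, of 7969 bases and 552 codons, so no reads had to be divided within the gene. Prkaa1 has 2, which code for 559 and 550 codons. Prkaa1-201 was given 1.84 TPM in library 1 and 4.87 TPM in library 2, and Prkaa1-202 was given 2.73 and 0 TPM. The gene total moved little while the split between transcripts turned over. Prkaa1-201 has 37 windows of its own and Prkaa1-202 has 0. In the second quantification Prkaa1-201 led in both libraries, with 2.65 and 2.90 TPM against 1.58 and 1.70 TPM.

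The beta subunits join the alpha and gamma subunits and were at like levels. Prkab1 (beta1; chr5:116013586-116024508, minus strand) had 15.0 and 15.1 TPM. Prkab2 (beta2; chr3:97658193-97673812, plus strand), the form prominent in skeletal muscle, had 13.0 and 12.7 TPM. Prkab1 was higher in both libraries, by 1.15 and 1.19 times. Beta2 held 46.0% ± 0.549 (SD, n = 2) of beta subunit TPM. That share was 44.4% in the second quantification and 48.4% with protein-coding transcripts only, so beta1 was the higher in each.

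Counts, which are not corrected for length, gave the opposite order. Prkab1 had 906 and 869 counts and Prkab2 2110 and 1931. Beta2 held 69.5% ± 0.704 of beta counts, which is a share of reads and not of transcripts. Prkab1-201 and Prkab1-202 both have 270 codons, and the tables divided them differently. The first gave Prkab1-201 6.30 and 5.77 TPM and Prkab1-202 7.10 and 8.00 TPM, and the second gave 5.27 and 2.14 TPM against 7.55 and 11.6 TPM. Prkab1-202 was the higher in all 4 pairs. Prkab2-201 held 99.2% ± 1.17 of Prkab2 TPM.

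The gamma subunits carry the nucleotide-binding sites, and Prkag1 was the highest of them. Prkag1 (gamma1; chr15:98812797-98831521, minus strand), the widely expressed form, had 30.8 TPM in library 1 and 33.0 TPM in library 2. It was also the highest of all 7 AMPK subunit genes in both libraries, at the 85.9 percentile of detected protein-coding genes. Gamma1 held 69.1% ± 0.0912 (SD, n = 2) of gamma subunit TPM, gamma2 28.5% ± 0.898 and gamma3 2.35% ± 0.807. The gamma2 share rested on the table used. It was 33.8% ± 3.53 in the second quantification, 23.9% with protein-coding transcripts only, and 25.1% when the 3 full-length Prkag2 transcripts were set against Prkag1-201, a comparison added after the data were seen.

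Prkag1-201 held 88.4% ± 1.48 of Prkag1, with 27.5 and 28.8 TPM. It exceeded the summed full-length Prkag2 forms by 3.11 and 2.85 times in the first table and by 3.54 and 3.57 times in the second. In whole-gene TPM the same ratio was 2.48 and 2.37 in the first and 2.11 and 1.71 in the second. Prkag1 was the higher gene in all 4.

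Prkag3 (gamma3; chr1:74738922-74749221, minus strand) had 1.3 TPM in library 1 and 0.85 TPM in library 2. Its counts went the other way, 69 and 72. The effective length assigned to the gene was 1606 bases in library 1 and 2725 bases in library 2; it is an average over transcripts, weighted by the share each was given. Prkag3-203, a transcript of 517 bases marked for nonsense-mediated decay, had 0.61 TPM in library 1 and 0 in library 2. Protein-coding transcripts of Prkag3 had 0.37 and 0.42 TPM, of which Prkag3-206 held 0.31 and 0.42 TPM. Prkag3-204, marked for nonsense-mediated decay, has the identical sequence and was given the same values. The coding part of Prkag3 was therefore set by the estimator and was not resolved by reads. The scaled ratio of Prkag3 counts, library 2 over library 1, was 1.12 with an exact 95% interval of 0.794 to 1.58. No difference was thus detectable at this depth. Among 8 fast and skeletal muscle markers examined, 5 were detected, beside 48.9% of all protein-coding genes. The summed TPM of the 8 was 17.2 and 20.2. Of the 5 tested, 1 was called higher in library 2 and 1 lower, beside 12.8% and 10.4% of all genes tested. Of the fast myosins, Myh4 had 2.09 and 2.56 TPM, above Prkag3 in both libraries, while Myh1 and Myh2 were at 0.10 to 0.25 TPM. Their part in the Prkag3 value was not tested.

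**Figure D2:**
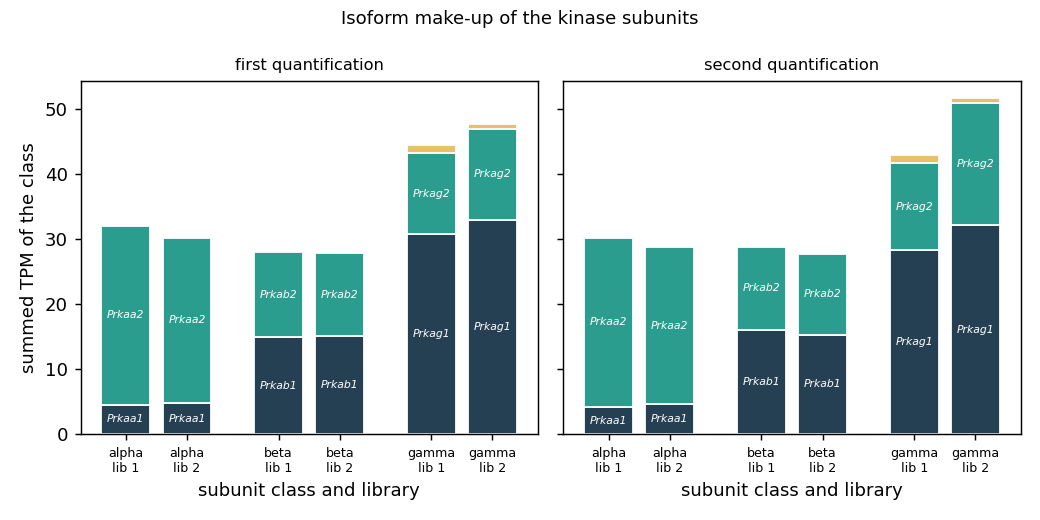
Summed TPM of the alpha, beta and gamma subunit genes as stacked bars, by library and quantification; the thin top segment of the gamma bars is Prkag3. Prkaa2 fills 83.8% to 85.7% of the alpha bars in the first quantification, and the mean share of Prkag2 in the gamma bars is 28.5% there and 33.8% in the second.

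Summed over each subunit class, alpha transcripts had 32.1 and 30.1 TPM, beta transcripts 27.9 and 27.8 TPM and gamma transcripts 44.5 and 47.7 TPM. The complex holds 1 subunit of each class, and the 3 sums lay within a factor of 2 of each other in both libraries. Gamma was the highest sum in both, at 1.39 and 1.59 times alpha. In the second quantification gamma was 1.42 and 1.80 times alpha. With protein-coding transcripts of the first only, gamma summed to 39.7 and 43.0 TPM against 32.1 and 30.1 TPM for alpha. Beta was 0.871 and 0.923 times alpha over all transcripts of the first quantification. RNA levels give no measure of protein or of kinase activity.

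Stk11 (chr10:80115803-80130682, plus strand) codes for LKB1, the main kinase that phosphorylates alpha subunits in muscle. It had 47.2 TPM in library 1 and 43.7 TPM in library 2, at the 90.5 percentile, and was above every AMPK subunit gene. It stood at 1.47 and 1.45 times the summed alpha transcripts. Exons of Cbarp overlap those of Stk11 on the opposite strand. Cbarp had 1.49 and 1.07 TPM, and whether the counting used the strand is not given in the sources used here.

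Stk11 reads were divided mainly over 3 coding transcripts. Stk11-201, with 436 codons, had 18.1 and 19.0 TPM, Stk11-202, with 310 codons, 14.6 and 11.7 TPM, and Stk11-210, with 412 codons, 12.1 and 11.0 TPM. Stk11-201 held 41.0% ± 3.6 (SD, n = 2) of the gene by the first quantification and 51.1% by the second. There, Stk11-202 had 9.95 and 3.46 TPM. Stk11-201 led in all 4 sets of values. It has 7 windows of its own among its 2466, and Stk11-202 and Stk11-210 have 0. The division between these 3 forms thus rested largely on the estimator.

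Of the carboxylases, Acacb (chr5:114146535-114250761, plus strand) codes for the enzyme at the outer mitochondrial membrane, whose malonyl-CoA restrains fatty acid import. It had 73.7 TPM in library 1 and 74.9 TPM in library 2, the highest of the 10 genes. Only 655 of the 10767 detected protein-coding genes were higher. Acaca (chr11:84129672-84401651, plus strand) codes for the cytosolic enzyme that supplies fatty acid synthesis. It had 5.41 and 7.51 TPM. Acacb held 92.0% ± 1.61 (SD, n = 2) of carboxylase TPM by the first quantification and 92.7% by the second. The ratio of Acacb to Acaca was 13.6 in library 1 and 9.97 in library 2.

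Acaca shares sequence with a processed pseudogene. Of the 17278 windows of 101 bases along its transcripts, 4052 (23.5%) also occur in Gm5182 at chr12:10152142-10158233, so reads from them could be placed at either. Gm5182 was given 1.05 and 0.90 TPM in the first table. Acaca also shares 27 windows with Gm42553, which was given 0 TPM in the first table and 1.19 and 1.26 TPM in the second. Gm42553 was not added to Acaca in the setting that follows. With all of Gm5182 added to Acaca, a setting chosen after the data were seen, Acacb still held 90.9% and the ratio of Acacb to Acaca was 11.4 and 8.90. The split of Acaca over its transcripts was poorly fixed. Acaca-201, with 9026 bases and 2345 codons, had 1.85 and 3.25 TPM, and the short Acaca-203, with 1058 bases, had 2.28 and 1.77 TPM. Acaca-201 has 0 windows of its own. Acaca-206, of 431 bases, had 0.24 and 1.83 TPM in the first table and was listed at 0 in the second. Acaca-205 was listed at 0 in the first and had 1.24 and 1.56 TPM in the second. Across the 10 genes the same transcript led in all 4 sets of values for 6, and the others were Prkaa1, Prkag2, Prkag3 and Acaca.

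Acacb has a pair of full-length transcripts with the same 2448 codons and separate starts 18983 bases apart. Acacb-202 starts at base 114146535 and its first exon is untranslated. Acacb-201 is annotated from the start codon itself, at base 114165518. In the first quantification Acacb-202 had 65.2 and 69.5 TPM and Acacb-201 was listed at 0 in both libraries. In the second, Acacb-202 had 46.8 and 59.8 TPM and Acacb-201 17.1 and 7.68 TPM. Acacb-202 led in all 4 sets of values, with 90.7% ± 3.10 of the gene in the first table and 77.2% in the second. Acacb-202 has 302 windows of its own and Acacb-201 has 0. The level of the Acacb-201 start was therefore not resolved. Acacb-204, a retained-intron transcript, took 5.78 and 3.68 TPM in the first table and 0.767 and 0.350 TPM in the second.

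**Figure D3:**
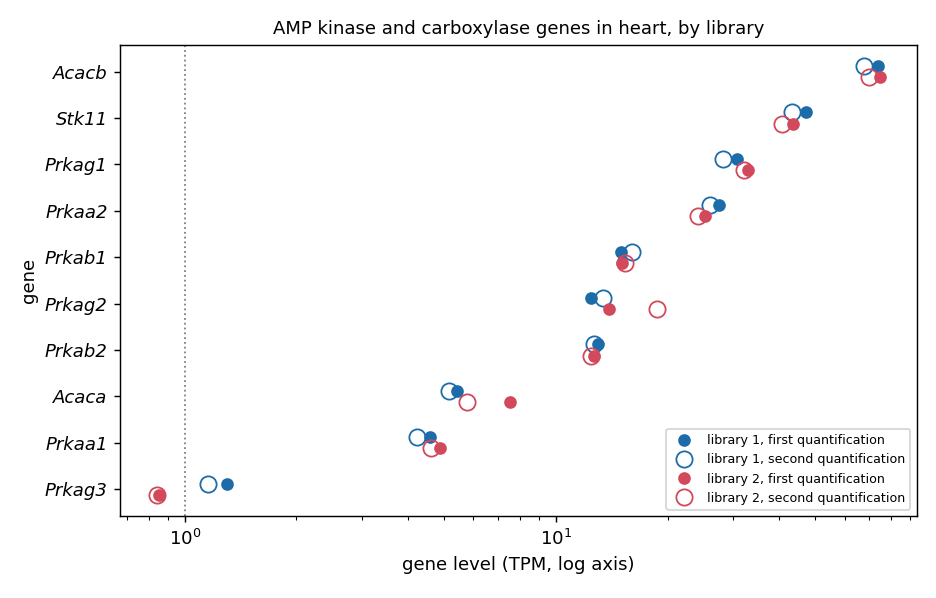
TPM of the 10 genes on a log axis, with filled points for the first and open points for the second quantification of each library and a dotted line at the detection threshold of 1 TPM. In the first quantification Acacb is highest at 73.7 and 74.9 TPM and Prkag3 lowest, at 0.85 TPM in library 2.

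From high to low mean TPM the order was Acacb, Stk11, Prkag1, Prkaa2, Prkab1, Prkag2, Prkab2, Acaca, Prkaa1 and Prkag3. The neighbours Prkag2 and Prkab2 overlapped between libraries and their order is not fixed; their means differed by 0.34 TPM. The values of the other neighbours did not overlap in the first quantification. In the second, the mean of Prkag2 was above that of Prkab1, at 16.1 and 15.7 TPM. Library 2 alone carried that change, with 18.8 TPM for Prkag2 and 15.3 for Prkab1, while in library 1 Prkag2 was the lower, at 13.4 against 16.1 TPM. Between the tables no gene of the 10 differed in mean TPM by 0.32 or more on the log2 scale, beside 12.1% of all genes tested. The median over detected protein-coding genes was 7.63 TPM, and Acaca, Prkaa1 and Prkag3 lay below it.

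The libraries were next compared gene by gene on log2 of TPM plus 1, for the 11940 genes with at least 10 counts in a library and a mean of at least 1 TPM. All 10 genes passed this filter. None was past 2-fold, beside 0.603% of all genes tested and 0.377% past it with the higher value in library 2. In the first quantification Acaca was past a lower threshold of 0.32 on this scale, the 1 gene of the 10 to be so, beside 9.87% of all genes tested. This threshold was not applied to the second, where Acaca had 5.16 and 5.78 TPM and Prkag2 13.4 and 18.8 TPM. There the values of Prkag2 lay further apart on this scale than those of Acaca. Differences in the first quantification, library 2 minus library 1, ran from −0.31 for Prkag3 to 0.41 for Acaca. Their median was 0.02 against −0.01 over all genes, with an SD of 0.26 over all genes. In 6 of the 10 genes TPM was higher in library 2 and in 4 it was lower.

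Ratios of counts, scaled by the total on annotated genes, were given exact Clopper-Pearson 95% intervals, which cover counting error only. The interval left out 1 for 4 of the 10 genes, beside 23.3% of all genes tested. Acaca, with 805 and 1000.1 counts, had a ratio of 1.33 (1.21 to 1.47). Prkag2 had a ratio of 1.11 (1.02 to 1.22) and Acacb of 1.05 (1.03 to 1.07). These 3 were higher in library 2, as were 12.8% of all genes. Prkaa2, with 7174 and 6193 counts, was the lower one, at 0.927 (0.896 to 0.960), beside 10.4% of all genes. For Prkab1, Prkab2, Prkaa1, Prkag1, Stk11 and Prkag3 the interval held 1, and the widest of these was that of Prkag3.

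These calls were between libraries of the same group, and the scaling mattered for some. With totals of the ERCC spike-ins in place of annotated totals, which moved all ratios by 0.08 on the log2 scale, Prkaa1 and Prkag1 were also called higher. The share of all genes called with spike-in totals was not computed. Prkaa2 was then at 0.981 (0.948 to 1.01) and no longer lower. In the second quantification, scaled by its own totals, Prkag1 was also called higher, at 1.08 (1.01 to 1.16). The count ratio of Acaca was 1.32 (1.21 to 1.44) there, while its TPM was 5.16 and 5.78. The excess of Acaca counts in library 2 was thus present in both tables, and its size in TPM was not.

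**Figure D4:**
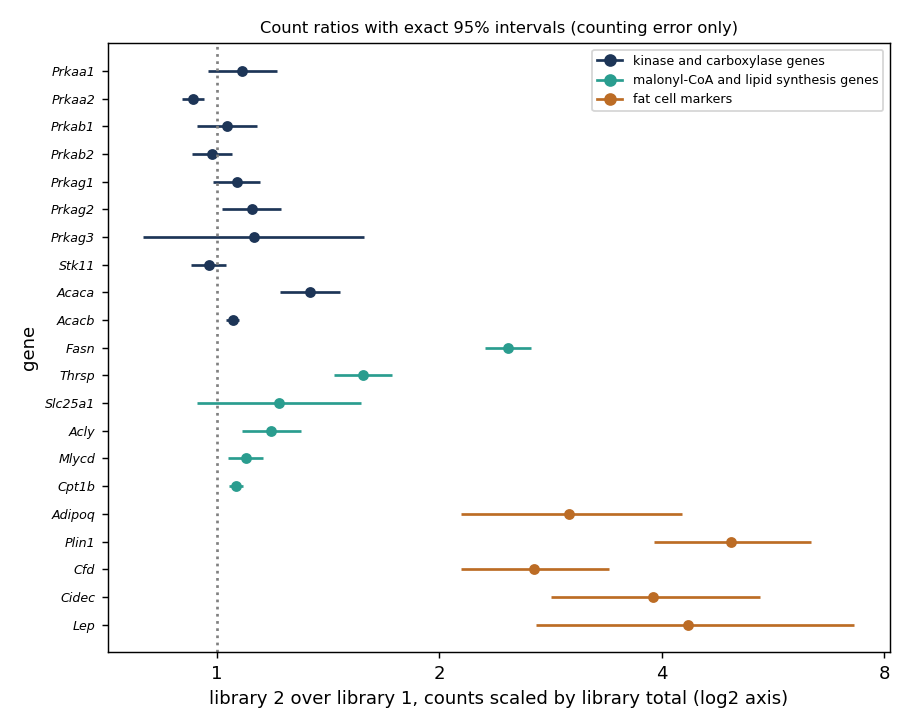
Count ratio of library 2 over library 1 on a log axis, with exact 95% intervals for counting error and a dotted line at a ratio of 1. Drawn are the 10 genes, 6 of the 13 genes of the malonyl-CoA list and 5 of the 6 fat cell markers. The list and marker genes drawn are thus a selection. Of the 12 genes tested in the malonyl-CoA list, 7 were called higher and 0 lower, and Hlcs had a ratio below 1. Acaca lies at 1.33, the highest of the 10, and Fasn at 2.48.

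The surrounding pathway was taken from 6 lists with 60 genes, of which 55 were detected and 56 tested. Of all protein-coding genes 48.9% were detected. Of the 56 tested, 13 were higher and 5 lower in library 2 by the interval, beside 12.8% and 10.4% of all genes tested. Past 2-fold was 1, Fasn, beside 0.603% of all genes tested. These shares over all genes also stand beside the counts of each list below. The median difference over the 56 was 0.01 on the log2 scale. The 3 genes of each list with the highest mean TPM are named, and any past 2-fold.

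Upstream of AMPK, 6 of 7 genes were detected and none was called in either direction. Cab39, which codes for the scaffold MO25 of the LKB1 complex, had 35.9 and 33.9 TPM. Stradb, a pseudokinase partner of LKB1, had 24.9 and 22.1 TPM. Map3k7 (TAK1) had 17.3 and 17.6 TPM. Stk11 was thus above its named partners in both libraries. Among 7 phosphatase and folliculin genes, 1 was called higher and 0 lower. Ppm1a, which codes for a phosphatase that acts on AMPK, was that gene and had 84.7 and 89.9 TPM. The catalytic subunits of protein phosphatase 2A, Ppp2ca and Ppp2cb, had 17.2 and 16.9 TPM and 13.1 and 13.8 TPM.

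LKB1 also phosphorylates a family of kinases related to AMPK. Of 12 such genes 9 were detected, and of the 10 tested 1 was called higher and 3 lower. Snrk had 48.3 and 51.2 TPM, above Prkaa2 in both libraries. Sik3 had 19.7 and 17.9 TPM and Mark3 15.0 and 15.8 TPM. Among 16 substrates of AMPK all were detected, with 3 higher and 2 lower. Pnpla2, the adipose triglyceride lipase, had 133.5 and 155.5 TPM. Mff, the receptor for mitochondrial fission, had 52.0 and 50.7 TPM and Tsc2, an inhibitor of mTORC1 signalling, 42.3 and 44.3 TPM.

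The malonyl-CoA list holds genes that make, use or remove the product of the carboxylases. Of its 13 genes 12 were detected. Of the 12 tested, 7 were called higher and 0 lower, beside 12.8% and 10.4% of all genes tested, and the median difference was 0.08. The list was chosen with earlier results of these data known, so these counts describe it and do not test it. Cpt1b, the muscle form of the malonyl-CoA target, had 219.4 and 229.3 TPM and was about 3 times Acacb. Mid1ip1, which codes for a protein that promotes carboxylase polymers, had 86.7 and 85.2 TPM, slightly lower in library 2. By its count ratio of 1.06 (1.02 to 1.11) it was called higher. Mlycd, the decarboxylase that removes malonyl-CoA, had 38.5 and 41.7 TPM. Fasn, the fatty acid synthase that uses malonyl-CoA, had 3.83 and 8.97 TPM and a count ratio of 2.48 (2.31 to 2.66). Thrsp, a relative of Mid1ip1 named after its values were seen, had 21.2 and 33.0 TPM and a ratio of 1.58 (1.44 to 1.72). Acly, which makes cytosolic acetyl-CoA and was likewise named afterwards, had 8.33 and 8.24 TPM, slightly lower in library 2, and a count ratio of 1.18 (1.08 to 1.30).

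Markers of adipocytes were higher in library 2, as were Acaca and Fasn. Of 6 markers 4 were detected, all 5 tested were called higher and 3 were past 2-fold. Over all genes tested 12.8% were called higher, and 0.377% were past 2-fold with the higher value in library 2. The adipocyte markers were chosen to be set beside Acaca, so these counts describe and do not test. The summed TPM of the 6 markers was 9.83 in library 1 and 30.9 in library 2. Plin1, the perilipin of fat droplets, had 1.79 and 8.21 TPM and Adipoq (adiponectin) 2.01 and 4.67 TPM. The part of adipocytes in the Acaca and Fasn values was not tested. In bulk tissue fewer cells of a type and less RNA per cell cannot be told apart. Markers of other cell types also differed between libraries. All 4 endothelial markers were called lower in library 2, beside 10.4% of all genes tested, with sums of 109.1 and 99.2 TPM. Of 4 fibroblast markers 2 were called lower, with sums of 163.3 and 152.6 TPM. None of these 8 was called higher. Of 6 cardiomyocyte markers 3 were called higher and 2 lower, with sums of 24996 and 24831 TPM. The part of these cell types in the values of the 10 genes was not tested. Of 4 hepatocyte markers 0 were detected, and they summed to 0.27 and 0.33 TPM.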

How the data were processed

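Total RNA sequencing of heart was analysed in 2 libraries of 1 group. Reads were aligned to mm10 with GENCODE M21, per the deposited readme; neither the aligner nor any tool version is given in these sources. Per the file headers, the deposited tables of the first quantification hold expected counts, TPM, FPKM and the percent of each gene held by a transcript, with TPM intervals whose level the headers do not give. The second quantification holds estimated counts and TPM per transcript, which were summed per gene. Reads of a CAST cross were placed on the mm10 reference, and any effect on the values was not tested.

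Detection needed 1 TPM in both libraries. Differences were log2 of TPM plus 1, for genes with 10 counts in a library and a mean of 1 TPM. Expected counts were rounded, and the exact Clopper-Pearson 95% interval of library 2's share of a gene's counts was turned into a ratio. Scaling used annotated totals, with edgeR 4.0.16 TMM factors, DESeq2 1.42.0 size factors (R 4.3.3) and spike-in totals as alternatives. Other steps used Python 3.11.15, pandas 2.3.3 and scipy 1.17.1. Code was tested on simulated data. Windows of 101 bases follow from effective lengths 100 bases below length. Named transcripts held 10% of a gene or were coding Prkag2 forms, and Acacb-204, below 10%, was named in addition.

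Although the rule for the members uses no measured value, the members and lists were chosen with earlier results of these data known. Protein sequences were not used here.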

Additional observations from a re-analysis of the deposited data

How the results depend on the processing

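No paired analysis was possible because the libraries form 1 group. The alpha2 and Acacb shares moved by less than the spread between libraries in the second quantification, with protein-coding transcripts only and with FPKM. The beta2 share went from 46.0% to 44.4% in the second quantification and to 48.4% with protein-coding transcripts only. The gamma2 share went from 28.5% to 33.8%, to 23.9% and, with 3 full-length Prkag2 transcripts against Prkag1-201, to 25.1%. Taking 1 library at a time, alpha2 held 83.8% to 85.7%, beta2 45.6% to 46.4%, gamma2 27.9% to 29.2% and Acacb 90.9% to 93.2%, and 9 to 10 genes were detected. The number past 2-fold was 0 also with a pseudocount of 0.1, without a filter and in the second quantification. In the first it was 1, Acaca, at a threshold of 0.32 on the log2 scale, which 9.87% of all genes tested passed. That threshold was not applied to the second quantification, where Prkag2 differed more between libraries than Acaca. The number whose interval left out 1 stayed at 4 with TMM factors and DESeq2 size factors. It was 5 with spike-in totals and 5 in the second quantification. In the main setting the interval left out 1 for 23.3% of all genes tested, and that share was not computed for the other settings. Gene levels differed between quantifications by more than the spread between libraries in 7 of 10 genes, and 2 of the 10 were higher in the second. Transcript shares did so in 17 of 24. Apart from construction, the cause was not tested. With 2 libraries, an SD has little precision; transcripts with few or no windows of their own limit the division within genes.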

Other observations

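The carboxylases belong to a family of biotin-dependent enzymes whose other members work in the mitochondrial matrix, and all 5 of their genes were detected. Pccb, a subunit of propionyl-CoA carboxylase, had 38.6 TPM in both libraries, and its partner Pcca had 35.0 and 33.9 TPM. Mccc1, a subunit of methylcrotonyl-CoA carboxylase, had 29.5 and 32.2 TPM. Acacb was above each of these in both libraries and Acaca below each. By the count interval 1 of the 5, Pcx (pyruvate carboxylase), was higher in library 2, with 14.5 and 16.0 TPM, and 0 were lower.

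The RefSeq windows of 250 bases ahead of the other genes covered a wide range of base composition. That of Prkaa1 had a GC content of 85.2% with 45 CpG dinucleotides, at the 99.9 percentile of all windows. That of Acaca, at chr11:84195188-84195437, had a GC content of 39.2% with 0 CpG dinucleotides and lies ahead of Acaca-201. That of Acacb lies ahead of Acacb-201 and had a GC content of 52.4%, with 1 match each to TATAAA and CCAAT. It is not the start that led in the transcript tables, Acacb-202.

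Prkag3-204, marked for nonsense-mediated decay, and Prkag3-206, marked as coding, have identical sequences of 2832 bases in the annotation. Each was given 0.31 and 0.42 TPM. Their division is set by the estimator, not by reads.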
